A study of Arabidopsis thaliana with 17 samples.

Results

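Hsp70-2 (AT5G02490), AT3G09440 and AT1G11660 are 3 genes of the HSP70 chaperone family of Arabidopsis thaliana, each read by a probe set of its own. They were chosen by family and because the array's annotation ties each probe set to a single gene, and they are 3 of 22746 probe sets tested and of 13513 with 1 gene. In a list of 18 HSP70 and HSP110 loci, AT4G16660 was the only other gene with such a probe set, and it is described after the 3 members. The list does not separate HSP70 from HSP110 genes, so the members and AT4G16660 need not be of the same branch. The study asked how an earlier heat treatment changes the transcript response to later heat and what the heat shock factor HSFA2 contributes.

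Whole seedlings of accession Col-0, 7 d old and grown at 22 °C, were compared in 7 groups on 17 arrays, 1 array per sample. The hsfa2 seedlings carry the insertion allele SALK_008978, given as a knockout in the Col-0 background. They were primed and triggered (heated to 37 °C for 1 h at 4 d of age, left to recover for 3 d and heated again for 1 h just before collection, 2 arrays), triggered (heated for 1 h just before collection only, 2 arrays) or naive (never heated, 2 arrays). Wild-type (WT) seedlings were primed and triggered (3 arrays), triggered (3 arrays), primed (heated at 4 d and collected after recovery, 2 arrays) or naive (3 arrays). Primed hsfa2 seedlings without a second heat were not among the 17 samples. The mutant is a single insertion line, and its target gene could not be read: none of the 15 heat shock factor genes listed, HSFA2 among them, had a probe set with 1 gene.

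HSP70 proteins bind unfolded stretches of other proteins and release them in a cycle driven by ATP. J-domain proteins bring clients and start ATP hydrolysis, nucleotide exchange factors such as Fes1 reset the chaperone, and Hop proteins pass clients on to HSP90. In plants under heat, many HSP70 genes are switched on by heat shock factors, which bind repeated elements in their promoters. HSFA2 is itself induced by heat and is known for keeping or raising heat-induced transcription after the first stress. Within the family, cytosolic members are close in sequence. Hsp70-2 lies next to HSC70-1 in the TAIR10.1 annotation, and HSC70-1 had no probe set with 1 gene. How much of a member's signal comes from close relatives was not tested.

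Values are probe set intensities made by the authors with RMA, and log2 is their base-2 logarithm. A level of 1 probe set cannot be set against that of another. Median intensities per array were 51.8 to 58.9 in the 10 arrays of triggered groups (primed or not) and 60.1 to 64.2 in the 7 others. In 3 arrays, WT primed replicates 1 and 2 and WT naive replicate 3, the hybridisation control bioB was at a log2 of 4.40 to 4.43, against 6.98 to 8.14 in the remaining 14, and the GAPDH signal was 1.25 to 1.58 log2 units higher at the 3′ than at the 5′ end, against 0.23 to 1.22. These 3 arrays are called the low-bioB arrays below. The sample labels name no batch, and low against high bioB is used as one only because of this signal. Shoot markers (RCA and PRK, 2 of 9 measured) lay between 12.01 and 13.84 and the root marker PYK10 between 10.38 and 12.90 in the 17 arrays. The root hair expansins EXPA7 and EXPA18 were dimmer, at 3.80 to 6.93. Changes are limma estimates from 1 fit to all 17 arrays with their standard error (SE), and a change counts as called at a Benjamini-Hochberg adjusted p under 0.05 over all probe sets.

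In WT seedlings that were heated only once, just before collection, all 3 genes were higher than in naive seedlings. Hsp70-2 had intensities of 763, 677 and 769 in triggered WT seedlings, against 69.3, 75.1 and 115 in naive WT seedlings. No naive array came near the triggered ones, and the third naive value belongs to a low-bioB array. The change was 3.13 log2 units (SE 0.20, 8.74-fold, limma adjusted p = 1.89e-07). AT3G09440 had 11880.3, 11323 and 12484 in triggered WT seedlings and 981, 911 and 832 in naive ones. Its arrays agreed most closely of the 3 genes after heat, with an SD of 0.07 log2 units, and the groups lay far apart. It rose by 3.71 (SE 0.10, 13.1-fold, adjusted p = 3.62e-11). AT1G11660 had 717, 785 and 1029 in triggered WT seedlings, against 241, 315 and 250.2 in naive ones. Those groups did not overlap either, but the distance between them was the smallest of the 3, with a rise of 1.64 (SE 0.18, 3.12-fold, adjusted p = 3.58e-05).

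All 3 members were thus called higher, where 5.90% of all probe sets were called higher and 15.4% in either direction. The median change over all probe sets was 0.00, or 0.16 with each array centred on its median, a shift of 0.15 that is small beside the members' changes. The summed intensity of the root markers was 1374 to 3335 in the 10 arrays of triggered groups and 5592 to 7842 in the others, and that of the shoot markers 15165 to 19759.9 and 20177 to 22399. The root sum comes nearly all from PYK10, since the expansins are dim. Whether less RNA came from fewer cells of a type or from less RNA per cell cannot be told apart, and the part of such shifts in the members' rises was not tested. After heat AT3G09440 lay at a log2 of 13.39 to 13.61, while the brightest probe set of each array lay at 14.05 to 14.26, so a further rise of this gene may not be seen.

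**Figure D1:**
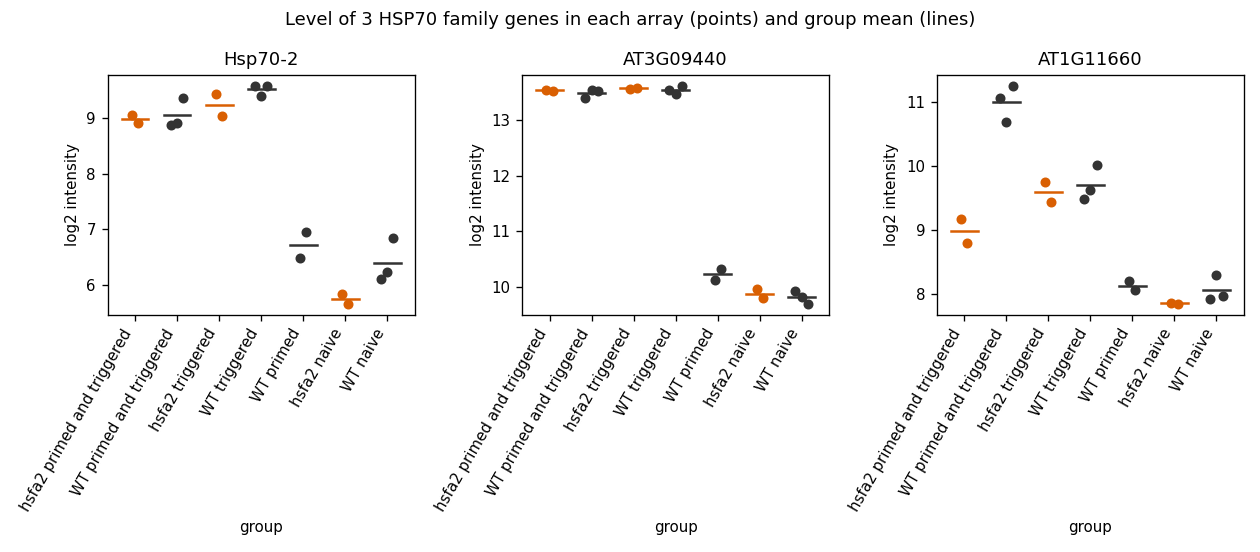
Log2 intensity (vertical axis) of Hsp70-2, AT3G09440 and AT1G11660 in 17 arrays by group (horizontal axis), with hsfa2 in orange and WT in dark grey. Points are arrays and lines group means. Hsp70-2 and AT3G09440 form a high and a low block by heat just before collection, while AT1G11660 stands highest in primed and triggered WT seedlings, at a mean of 11.00 against 8.98 in primed and triggered hsfa2 seedlings.

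The size of the heat response was compared between the genes within the same arrays. In the 6 WT arrays heated just before collection against the 5 others, the log2 difference of Hsp70-2 minus AT3G09440 averaged −4.22 ± 0.28 and −3.46 ± 0.37 (SD). The heated minus unheated difference was −0.76, a smaller measured rise of Hsp70-2, and the arrays did not overlap. It passed an exact permutation test over 462 splits (two-sided, p = 0.00216, the smallest these arrays allow, and 0.00649 adjusted over the 3 pairs). AT3G09440 minus AT1G11660 averaged 3.16 ± 0.78 in heated and 1.90 ± 0.28 in other WT arrays, a difference of 1.26 (exact p = 0.0130, adjusted 0.0195). For Hsp70-2 minus AT1G11660 the difference was 0.50, from −1.06 ± 0.99 in heated and −1.56 ± 0.43 in other arrays, and did not pass (exact p = 0.305). These tests pool primed and unprimed seedlings, and the values within each, given with no test because the groups hold 2 or 3 arrays, were unequal. Triggered minus naive, the Hsp70-2 minus AT1G11660 difference shifted by 1.48, with heated arrays at −0.42 to 0.09 and naive ones at −2.07 to −1.13. Primed and triggered minus primed, it shifted by −0.54, with heated arrays at −2.17 to −1.78 and primed ones at −1.70 to −1.11. For AT3G09440 minus AT1G11660 the shift was 2.07 in unprimed and 0.37 in primed seedlings, so the pooled 1.26 describes neither. For Hsp70-2 minus AT3G09440 it was −0.59 in unprimed and −0.91 in primed seedlings, below 0 in both. The 3 low-bioB arrays are all among the unheated ones, so these tests cannot tell heat from what sets those arrays apart. With low against high bioB as a block, the rises of Hsp70-2 and AT3G09440 in primed seedlings were 3.00 and 3.07, so little distance was left. Without WT naive replicate 3, their rises in unprimed seedlings were 3.35 and 3.65. In unheated WT arrays Hsp70-2 had intensities of 69.3 to 123, near the array medians of 60.1 to 64.2. How far background signal lessened its rise was not tested.

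The first heat response was present in hsfa2 seedlings as well. Hsp70-2 had 693 and 529 in triggered hsfa2 seedlings, against 57.1 and 50.5 in naive hsfa2 seedlings. AT3G09440 had 12056 and 12136 after heat and 996 and 897 without it. AT1G11660 had 861 and 693 in triggered and 232 and 229 in naive hsfa2 seedlings. In each gene both heated arrays lay above both naive ones, which with 2 arrays a group carries little weight by itself. All 3 members were called higher by limma, by 3.49 (SE 0.25), 3.68 (SE 0.12) and 1.74 (SE 0.22) log2 units for Hsp70-2, AT3G09440 and AT1G11660, where 3.50% of all probe sets were called higher and 8.39% in either direction.

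Between the genotypes, the triggered levels of no member were called different, where 0.00879% of all probe sets were. The difference hsfa2 minus WT after triggering was −0.28 log2 units for Hsp70-2 (95% interval −0.77 to 0.21), 0.03 for AT3G09440 (−0.21 to 0.26) and −0.11 for AT1G11660 (−0.54 to 0.33). Each interval includes 0 and values on both sides of it. The response itself, triggered minus naive, differed between hsfa2 and WT by 0.37 (SE 0.32), −0.04 (SE 0.16) and 0.10 (SE 0.28) for the same genes. None of these was called either, against 0.00440% of all probe sets. In naive seedlings Hsp70-2 had its lowest level in hsfa2, with both hsfa2 arrays below all 3 WT arrays. The difference of −0.65 (SE 0.23, unadjusted p = 0.0130, limma adjusted p = 0.615) was not called and was −0.43 without the low-bioB WT naive replicate 3. Of all probe sets, 0 were called in that comparison by limma, and 1317 had an unadjusted p under 0.05. The naive differences were 0.06 (SE 0.11) for AT3G09440 and −0.21 (SE 0.20) for AT1G11660.

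What remained of the first heat after 3 d of recovery was read in primed WT seedlings. AT3G09440 had 1124 and 1284 in primed WT seedlings, against 981, 911 and 832 in naive ones. Both primed arrays lay above all naive arrays, by 0.41 log2 units on average (SE 0.11, unadjusted p = 0.00268), but the change was not called (limma adjusted p = 0.379). Against WT naive replicate 3 alone, the naive array among the low-bioB arrays, it was 0.53. Hsp70-2 had 90.0 and 123 in primed seedlings, against 69.3, 75.1 and 115 in naive ones, so 1 primed array lay within the naive range and 1 just above it. Its difference of 0.32 (SE 0.23) turned to −0.12 within the low-bioB arrays. AT1G11660 had 292 and 266, also within the naive range, with a difference of 0.06 (SE 0.20). None of the 3 was called, against 0.00440% of all probe sets.

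A second heat in primed WT seedlings raised all 3 genes above the primed level, where 8.51% of all probe sets were called higher and 21.1% in either direction. AT3G09440 rose by 3.25 log2 units (SE 0.11), AT1G11660 by 2.88 (SE 0.20, 7.34-fold, limma adjusted p = 5.10e-07) and Hsp70-2 by 2.34 (SE 0.23). All primed arrays are low-bioB arrays and no primed and triggered array is. With that batch as a block, the changes were 3.07 for AT3G09440, 2.73 for AT1G11660 and 3.00 for Hsp70-2, so the order of AT1G11660 and Hsp70-2 turned with the setting. Only the WT naive group holds arrays of low and of high bioB. The block therefore rests on WT naive replicate 3 set against replicates 1 and 2.

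Heat memory, the level reached after both heats set against that after the later heat alone, was called for 1 of the 3 members, AT1G11660. AT1G11660 had 2128, 1655 and 2439.5 in primed and triggered WT seedlings, against 717, 785 and 1029 in triggered ones. The lowest value after both heats was above the highest after 1 heat, although the primed seedlings had shown a naive-like level before the second heat. The difference of 1.30 log2 units (SE 0.18, 2.46-fold, limma adjusted p = 0.00893) had rank 43 from the top among 22746 probe sets, of which 0.303% were called higher and 0.308% in either direction. In the same fit the call ended without WT primed and triggered replicate 1 or 3 or without WT triggered replicate 1 or 2 (1.27, 1.17, 1.19 and 1.25, with adjusted p = 0.0533, 0.0553, 0.0604 and 0.0520). It also ended in a fit of these 6 arrays alone (adjusted p = 0.180). The interaction, the gain from priming after heat minus that before heat, was 1.23 (SE 0.27, adjusted p = 0.380) and was not called, where 0.0176% of all probe sets were.

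No gain was measured in the other members. Hsp70-2 had 473, 481 and 663 in primed and triggered WT seedlings, each lower than all 3 triggered values of 763, 677 and 769. The difference of −0.47 (SE 0.20, unadjusted p = 0.0377, limma adjusted p = 0.975) was not called. AT3G09440 had 10735, 11880.3 and 11676 after both heats, overlapping the triggered arrays, with a difference of −0.06 (95% interval −0.27 to 0.15). This probe set was already bright, as given above.

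In hsfa2 seedlings no gain of AT1G11660 from priming was measured. AT1G11660 had 575 and 445 in primed and triggered hsfa2 seedlings, against 861 and 693 in triggered hsfa2 seedlings. Both arrays after 2 heats lay below both arrays after 1 heat, but the difference of −0.61 log2 units (SE 0.22, unadjusted p = 0.0158) was not called (limma adjusted p = 0.824). Hsp70-2 had 534 and 482 after both heats, against 693 and 529 after 1, a difference of −0.25 (SE 0.25). AT3G09440 had 11894 and 11739, against 12056 and 12136, a difference of −0.03 (SE 0.12). Limma called 0 of all probe sets in this comparison, where 1331 had an unadjusted p under 0.05. Against naive hsfa2 seedlings all 3 members were still called higher after both heats, by 3.24 (Hsp70-2), 3.64 (AT3G09440) and 1.13 log2 units (AT1G11660, SE 0.22, adjusted p = 0.00599), where 2.98% of all probe sets were called higher and 7.80% in either direction. For AT1G11660 that call ended without hsfa2 naive replicate 2 (1.12, adjusted p = 0.0529) or without hsfa2 primed and triggered replicate 1 (0.95, adjusted p = 0.0861).

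**Figure D2:**
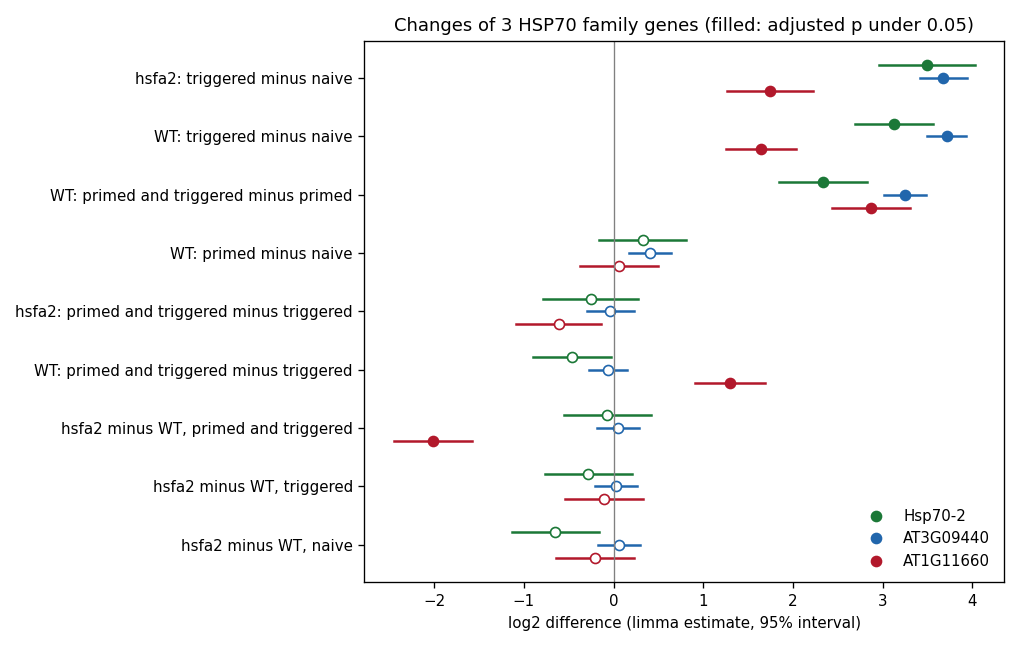
Log2 difference (horizontal axis) of the 3 genes in 9 comparisons (vertical axis), as limma estimates with 95% intervals from the fit to 17 arrays. Filled points have an adjusted p under 0.05 over all probe sets. AT1G11660 alone is filled for priming before heat in WT (1.30) and for hsfa2 minus WT after both heats (−2.02).

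Set side by side after both heats, the genotypes differed in AT1G11660 and not detectably in the other members. The 2 hsfa2 values of 575 and 445 lay far below the 3 WT values of 2128, 1655 and 2439.5. The difference was −2.02 log2 units (SE 0.20, 4.05-fold lower in hsfa2, limma adjusted p = 0.000445), rank 9 by p among all probe sets, where 0.796% were called lower and 1.37% in either direction. It was as large in a fit of these 5 arrays alone, but its adjusted p was then 0.0523. Hsp70-2 differed by −0.07 (95% interval −0.56 to 0.42) and AT3G09440 by 0.05 (−0.19 to 0.29). Neither was called.

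The difference between the genotypes in the effect of priming was tested itself. For AT1G11660 the primed and triggered minus triggered change was −0.61 log2 units in hsfa2 and 1.30 in WT, a difference of −1.91 (SE 0.28, limma adjusted p = 0.0339). It was 1 of 11 probe sets called, 0.0484% of all, and all 11 were lower in hsfa2. For Hsp70-2 the same difference was 0.21 (95% interval −0.48 to 0.90) and for AT3G09440 0.02 (−0.31 to 0.36). The estimate for AT1G11660 stayed between −2.09 and −1.72 when any 1 of the 10 arrays was left out, but its adjusted p passed 0.05 without WT primed and triggered replicate 1 (0.112) or 3 (0.105), WT triggered replicate 1 (0.109) or 2 (0.0876), hsfa2 primed and triggered replicate 1 (0.0582) or 2 (0.333), or hsfa2 triggered replicate 1 (0.0827) or 2 (0.110). With the arrays quantile normalised again it was 0.05004.

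Across all 7 groups the levels of the 3 genes fell into different orders. Hsp70-2 was highest in triggered WT seedlings at a log2 of 9.52 ± 0.10 (SD, n = 3), followed by triggered hsfa2 at 9.24 ± 0.28 (n = 2), primed and triggered WT at 9.06 ± 0.28 (n = 3) and primed and triggered hsfa2 at 8.99 ± 0.10 (n = 2). Each of these overlapped the next. Primed WT followed at 6.72 ± 0.32 (n = 2), naive WT at 6.39 ± 0.39 (n = 3), which overlapped it, and naive hsfa2 at 5.75 ± 0.12 (n = 2), which did not.

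AT3G09440 ran from 13.56 ± 0.01 in triggered hsfa2 (n = 2) through 13.54 ± 0.07 in triggered WT (n = 3) and 13.53 ± 0.01 in primed and triggered hsfa2 (n = 2) to 13.48 ± 0.08 in primed and triggered WT seedlings (n = 3), neighbours that all overlapped. Primed WT at 10.23 ± 0.14 (n = 2) stood above naive hsfa2 at 9.88 ± 0.11 (n = 2) without overlap, and naive WT at 9.82 ± 0.12 (n = 3) overlapped naive hsfa2.

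AT1G11660 had the most neighbouring groups without overlap, though not the widest range of group means. Primed and triggered WT stood at 11.00 ± 0.28 (n = 3), clear of triggered WT at 9.70 ± 0.27 (n = 3), which overlapped triggered hsfa2 at 9.59 ± 0.22 (n = 2). Primed and triggered hsfa2 at 8.98 ± 0.26 (n = 2) lay between these and primed WT at 8.12 ± 0.10 (n = 2) without touching either. Naive WT at 8.06 ± 0.21 (n = 3) overlapped primed WT, and naive hsfa2 at 7.85 ± 0.01 (n = 2) was just below all naive WT arrays.

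AT4G16660, the remaining HSP70 family gene of the list, was described in the same comparisons. It had 341 and 235 in primed and triggered hsfa2 and 1168, 598 and 1126 in primed and triggered WT seedlings. In triggered seedlings it had 444 and 409 in hsfa2 and 488, 296 and 533 in WT. Naive levels were 165 and 181 in hsfa2 and 130.0, 115 and 187 in WT, and primed WT seedlings had 202 and 245. WT heat alone raised it by 1.59 log2 units (SE 0.29, limma adjusted p = 0.00198) and hsfa2 heat by 1.30 (SE 0.35, adjusted p = 0.0361). Every WT array after both heats lay above every triggered WT array, by 1.12 on average (SE 0.29), but this was not called (adjusted p = 0.261). In 13 of 14 alternative fits it stayed uncalled, and over all 14 it ranged from 0.86 to 1.43. The exception was the fit without WT primed and triggered replicate 2 (1.43, limma adjusted p = 0.0434). After both heats it was lower in hsfa2 than in WT, with a difference of −1.71 (SE 0.32, adjusted p = 0.0224). That call ended without primed and triggered replicate 1 or 3 of WT (−1.54 and −1.56) or replicate 1 or 2 of hsfa2 (−1.98 and −1.44), with adjusted p-values of 0.0786, 0.0697, 0.0787 and 0.372. For AT4G16660 the genotype difference in priming was −1.71 (SE 0.45, adjusted p = 0.324) and primed and triggered minus naive hsfa2 was 0.71 (SE 0.35, adjusted p = 0.292), neither of which was called. The hsfa2 heat response lost its call without any 1 of its 4 arrays (1.24 to 1.37, adjusted p 0.130 to 0.191).

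Partner genes here are 36 genes of 3 lists: J-domain proteins, nucleotide exchange factors, and Hop, HSP90, HSP100 and partner proteins. The last list is not confined to direct partners of HSP70. Of the 36, 14 had a probe set with 1 gene. After triggering in WT, 8 of these 14 were called higher and 0 lower, where 5.90% of all probe sets were called higher, with a median of 1.36 log2 units against 0.00 over all probe sets. Of 6 J-domain protein genes, 3 rose: AT2G20560 by 7.54 (SE 0.33), AT4G28480 by 1.97 (SE 0.13) and ATERDJ3B, a J-domain protein of the endoplasmic reticulum, by 0.74 (SE 0.16). Of 3 nucleotide exchange factor genes, Fes1A rose by 6.42 (SE 0.20), while Fes1B at 0.54 (SE 0.78) and Fes1C at 0.52 (SE 0.35) were not called. Among the 5 measured genes of the list of Hop, HSP90, HSP100 and partner proteins, 4 rose. Hop3 rose by 7.37 (SE 0.41) and Hop2 by 3.13 (SE 0.21), Hop1 was at 0.32 (SE 0.19), ROF2 (AT5G48570), an FK506-binding protein, rose by 7.08 (SE 0.44), and HSA32 by 5.16 (SE 0.44). In hsfa2 7 of the 14 were called higher after triggering, where 3.50% of all probe sets were, with a median of 1.44.

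None of the 14 partner genes was called for priming before heat in WT (median 0.07, with 0 of 14 higher and 0 lower), for hsfa2 against WT after both heats (median −0.14) or for the difference in priming between the genotypes (median −0.13). The shares of all probe sets called in these comparisons, in either direction, were 0.308%, 1.37% and 0.0484%, so 0 of 14 is near the background. Limma had 1098 of all probe sets at an unadjusted p under 0.05 in the first of these and 3322 in the second. The partner changes with priming lay between −0.35 (Fes1C) and 0.20 (AT4G28480).

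**Figure D3:**
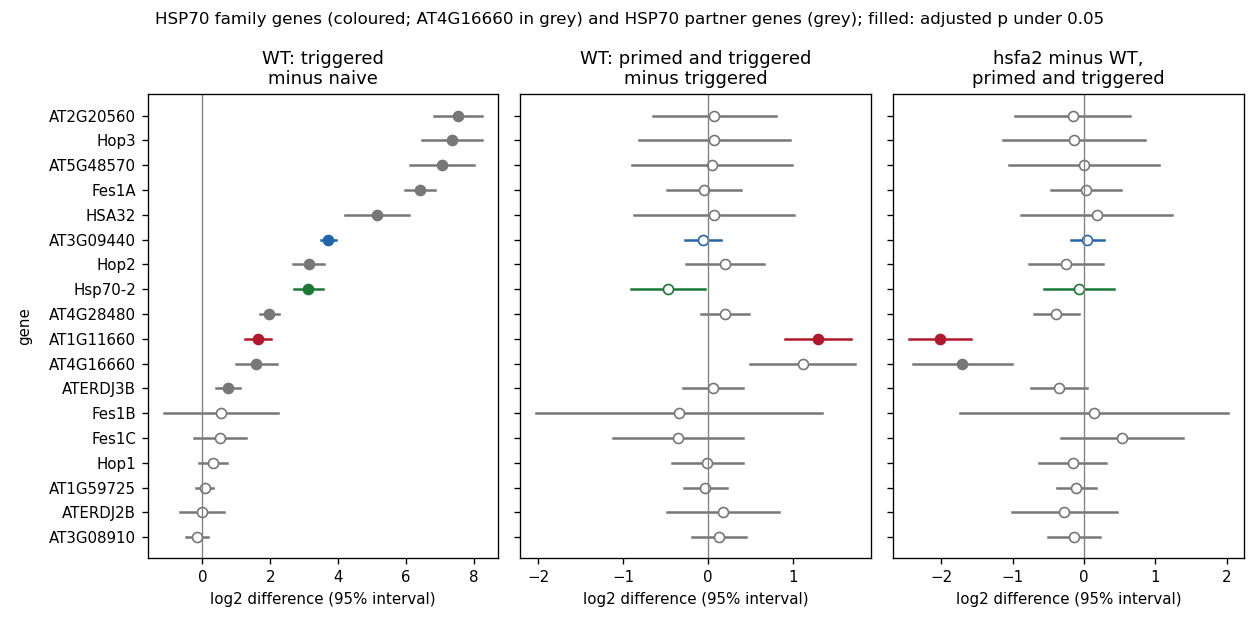
Log2 differences with 95% intervals (horizontal axes) of the 3 members (coloured), AT4G16660 and 14 partner genes (grey), ordered by their change after triggering in WT (vertical axis). Filled points have a limma adjusted p under 0.05. In the middle panel AT1G11660 is the filled point at 1.30, and in the right panel AT1G11660 (−2.02) and AT4G16660 (−1.71) are filled.

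Likeness of pattern was measured as the root mean square difference between the 7 group means of 2 genes, each centred on its own mean, over 13512 other probe sets with 1 gene. Hsp70-2 and AT3G09440 differed by 0.40 log2 units, while AT1G11660 differed from Hsp70-2 by 0.82 and from AT3G09440 by 1.04. Nearest to Hsp70-2 were AT4G08230 (0.17), Cpn60beta2, a subunit of the chloroplast chaperonin (0.21), and AT2G07751 (0.22). Nearest to AT3G09440 were AT3G12050 (0.10), the derlin gene DER1 (0.15) and AT1G55530 (0.16). Nearest to AT1G11660 were AT1G31335 (0.19), AT2G20720 (0.22) and AT1G11320 (0.22). Like AT1G11660, those 3 had larger values after both heats in WT, by 1.01, 1.41 and 0.84 log2 units over triggered WT, and smaller ones in hsfa2 than in WT after both heats, by −1.44, −1.85 and −1.57. They were picked for this likeness, so these values describe the choice.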

How the data were processed

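Whole-seedling RNA was hybridised to Affymetrix arrays, 17 samples in 7 groups. The deposited table gives intensity values (3.94 to 19602, linear), which the authors made with RMA, per the submitters' processing notes. Its version is not given in the sources used here. They were turned to log2 without a pseudocount. RMA aligns the arrays, so a change in total RNA would not be seen. After removal of 64 control probe sets, 22746 were tested. Names came from the platform annotation through RefSeq (TAIR10.1). No build goes with the array values, and coordinates are left out.

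A model of group means (limma 3.58.1, R 4.3.3, 10 residual degrees of freedom) gave 13 contrasts, with Benjamini-Hochberg adjustment over all probe sets. The fit was run on simulated data with known changes placed in triggered WT seedlings only. The contrasts with hsfa2 groups were not tested in this way. The number of arrays limits the precision. Where the arrays of groups are said not to overlap, the share of all probe sets that separate likewise is not given. With 2 or 3 arrays a group, such a separation is a description only. What makes the arrays of a group biological replicates is not stated, so p-values measure the spread between these samples, which may be technical. Replicate numbers are shared between groups. Deviations of same-numbered arrays correlated at −0.43 to 0.66 (median 0.03), against −0.60 to 0.60 (median −0.02) for arrays of different number. The fit therefore has no replicate block. In groups of 2 arrays the deviations mirror each other, which makes this a weak check. The members and lists were chosen with earlier results of these data known. Named genes were the 3 members, the called genes of the family and partner lists (at most 4 a list, beside which uncalled ones are given for contrast), and the 3 likest patterns per member. No pooled correlations are given, since heated and unheated arrays lie apart. Alternatives were 2 scalings, a trend with robust settings, array weights, a filter on dim probe sets (mean log2 under 5), replicate and bioB blocks, smaller fits, leaving out each array and, added after seeing the data, a split by priming.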

Additional observations from a re-analysis of the deposited data

Results flagged for a closer look

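The effect of priming on AT1G11660 after heat differed between the genotypes. The primed and triggered minus triggered change was −0.61 log2 units in hsfa2 and 1.30 in WT, and their difference of −1.91 (SE 0.28) passed the limma test of the difference itself (adjusted p = 0.0339). Over the alternatives the adjusted p lay between 0.00494 and 0.333. The groups hold 2 or 3 arrays, too few for a test of single stray arrays.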

How the results depend on the processing

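Of the 17 called results on the members, 12 kept their direction and call under every alternative run, among them every heat response of Hsp70-2 and AT3G09440, and no called result changed direction. The 12 include the pair Hsp70-2 minus AT3G09440, whose 15 alternatives held no bioB setting. As given above, with the bioB block the rises of these 2 genes in primed seedlings lay close together, so this pair was not tested where it is weakest. The other 5 concern AT1G11660. Split by priming, a choice made after seeing the data, the WT heat shift of AT3G09440 minus AT1G11660 was 2.07 in unprimed and 0.37 in primed seedlings (1.26 pooled), and that of Hsp70-2 minus AT1G11660, which was not called, was 1.48 in unprimed and −0.54 in primed seedlings (0.50 pooled). In fits of only the compared groups, its change with priming before heat in WT (1.30), the hsfa2 minus WT difference after both heats (−2.02) and the genotype difference in priming (−1.91) kept their size and lost their call, with fewer arrays to estimate the spread. Quantile normalisation left the last at −1.93. With 1 array left out, the priming change ranged from 1.17 to 1.45, the genotype difference in priming from −2.09 to −1.72 and the hsfa2 rise after both heats over naive from 0.95 to 1.32. Where an hsfa2 group kept 1 array, that array is assumed to vary like the other groups.

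Directions turned among the 25 results that were not called, and the cause was not tested. With the replicate block, Hsp70-2 after both heats was at 0.069 for hsfa2 minus WT. The block changed no call of a member, and 38 of 39 results kept direction and call. With the bioB batch as a block, and within the batch that holds both groups (for primed against naive WT a single naive array, with no test), Hsp70-2 in primed minus naive WT was at −0.12, AT3G09440 in naive hsfa2 minus WT at −0.00066 and its genotype difference in heat response at 0.026. Centred on array medians, AT3G09440 in hsfa2 minus WT was at −0.0042 after both heats and −0.041 after triggering. With 1 array left out, AT1G11660 ranged from −0.055 to 0.26 for the genotype difference in heat response, from −0.27 to 0.047 for triggered hsfa2 minus WT and from −0.0082 to 0.18 for primed minus naive WT. AT3G09440 ranged from −0.11 to 0.040 for the difference in heat response, from −0.015 to 0.14 and −0.0098 to 0.061 for naive and triggered hsfa2 minus WT, and from −0.021 to 0.059 for the difference in priming. Hsp70-2 ranged from −0.15 to 0.090 for hsfa2 minus WT after both heats.

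The number of probe sets called over the whole array moved more. Over the alternatives it lay between 1832 and 4324 for WT triggering (3502 as reported), 954 and 6091 for the second heat in primed WT (4802), 4 and 88 for priming before heat (70), 0 and 542 for primed against naive (1) and 0 and 29 for the interaction (4). In hsfa2 it lay between 828 and 5771 for triggering (1908), 777 and 6339 for both heats against naive (1775) and 0 and 29 for priming before heat (0). Between genotypes it lay between 0 and 37 for naive (0), 1 and 31 for triggered (2), 5 and 1726 for primed and triggered seedlings (311), 1 and 29 for the heat response (1) and 0 and 89 for priming (11).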
